A study of Mus musculus with 20 samples.

Results

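B cells were compared with T cells among sorted blood-forming and immune cells of C57BL/6 mice. The comparison uses 6 of the 20 arrays of the study: 2 arrays of B220(+) B lymphocytes (called B here) against 2 arrays of CD4(+) T lymphocytes (CD4T) and 2 of CD8(+) T lymphocytes (CD8T), each purified by cell sorting. The arrays were picked by the titles of the samples, and on the T side the CD4T and CD8T means carried equal weight on the log2 scale. All groups share the C57BL/6 background, the labels name no allele, agent or time, and each group has 2 biological replicates. The organ, the animals behind each replicate, their age and any gate beyond the named surface marker stand in none of the sources used here. Each array (Affymetrix Mouse Genome 430 2.0) read labelled RNA amplified in 2 rounds from the equivalent of 3000 cells. B220 is a splice form of the protein CD45 that B cells carry, and some other cells carry it too. The other 14 arrays, 2 of each of 7 further populations, served to estimate the spread between replicates and to place B levels beside other cell types.

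B and T lymphocytes recognise antigen with related machines. The B cell receptor is a membrane antibody that signals through the paired chains CD79A and CD79B, whereas the T cell receptor signals through the CD3 chains and CD247. The chains of both receptors carry tyrosine motifs that Src family kinases phosphorylate, a tandem SH2 kinase docks there, and an adaptor then brings in a phospholipase C gamma, with calcium, protein kinase C and Ras signals downstream. B cells also take up antigen and show its peptides to CD4 T cells on MHC class II molecules. The transcription factors EBF1 and PAX5 hold B cell identity, and BCL11B, GATA3 and TCF-1 take part in that of T cells.

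The intensities are linear, had been brought to a trimmed mean of 100 on every array by the authors, and are given below as read from each array. Differences are on the scale log2(intensity + 6.75), as B minus the T mean, with the standard error of the limma fit after the sign ±. A gene is called when its limma adjusted p is below 0.05 and its difference is at least 1. In cells measured in bulk, fewer cells with a transcript and less of it per cell cannot be told apart, and intensities of different genes are not set against each other. The replicates are named biological without their source, so the p-values measure the spread between arrays of one population.

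The labels were checked on the fixed markers. Ms4a1 (CD20) read 8633 and 7504 in the B arrays and 1.56 to 17.9 in the 4 T arrays. Pax5 read 678 and 437 against 5.36 to 40.0, and Cd3e read 5.13 and 10.7 against 411 to 744. Cd4 stood at 421 and 363 in CD4T and 3.63 and 3.33 in CD8T, and Cd8b1 at 23.6 and 74.9 and 2242 and 2086. Each marker sat on the side its label names, with no overlap between the groups. Markers of other cells were summed on each array. The 10 erythroid markers summed to 412 in B replicate 1, 128 in B replicate 2 and 144 to 186 in the T arrays, beside 52617 to 65659 in erythroblasts. The 13 neutrophil markers summed to 166 to 440 in the 6 arrays, and the 13 monocyte markers to 263 to 304 in B, 966 to 1261 in CD4T and 375 to 516 in CD8T, with Ccr2, which T cells can also express, at 1027 and 681 in CD4T and 103 and 249.8 in CD8T. The 6 NK markers summed to 79.4 to 99.985 in B and 457 to 2389 in T, beside 13483 to 14514 in NK cells. Of 11 plasmacytoid dendritic cell markers, Ly6d, Tcf4 and Tlr7 were called higher in B and Ccr9, Pacsin1 and Irf7 lower (1 lower without B replicate 2), while Siglech, a defining marker, read 23.7 and 21.9 in B and 5.42 to 27.9 in T. The 11 summed to 5169 to 6064 in B and 841 to 1752 in T, and no array of these cells was used here. Most of that B sum came from Ly6d, a surface protein of the B lineage, whose values are given below. The 7 NKT markers summed to 117 to 139 in B and 1332 to 2787 in T, beside 5303 to 5951 in NKT cells. The 6 markers of gamma delta T cells, Blk and Maf among them, summed to 1353 to 1662 in B, 1726 to 2526 in CD4T and 239 to 319 in CD8T, likewise with no such array. The part of such cells in the results was not tested. The 2 B arrays correlated with each other at r = 0.967 across genes and with the T arrays at 0.849 to 0.860, and genes are not independent replicates.

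Of 14044 genes tested, 1802 (12.8%) were called. B cells were higher in 817 (5.82%) and lower in 985 (7.01%). Both B arrays lay above all 4 T arrays in 2207 genes (15.7%) and below them in 2759 (19.6%), called or not. The differences were large at both ends, with 97 genes higher and 94 lower by a log2 difference of 4 or more, and 14 and 9 by 7 or more. The median of all genes tested was -0.06. Against CD4T alone, 787 genes were higher in B (5.6%) and 1059 lower (7.54%). Against CD8T alone, 831 were higher (5.92%) and 863 lower (6.14%). These 2 comparisons share the B arrays. Of the 1802 genes, 1206 were called the same way against each T population, 305 against CD4T only, 248 against CD8T only and 43 against neither alone.

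**Figure D1:**
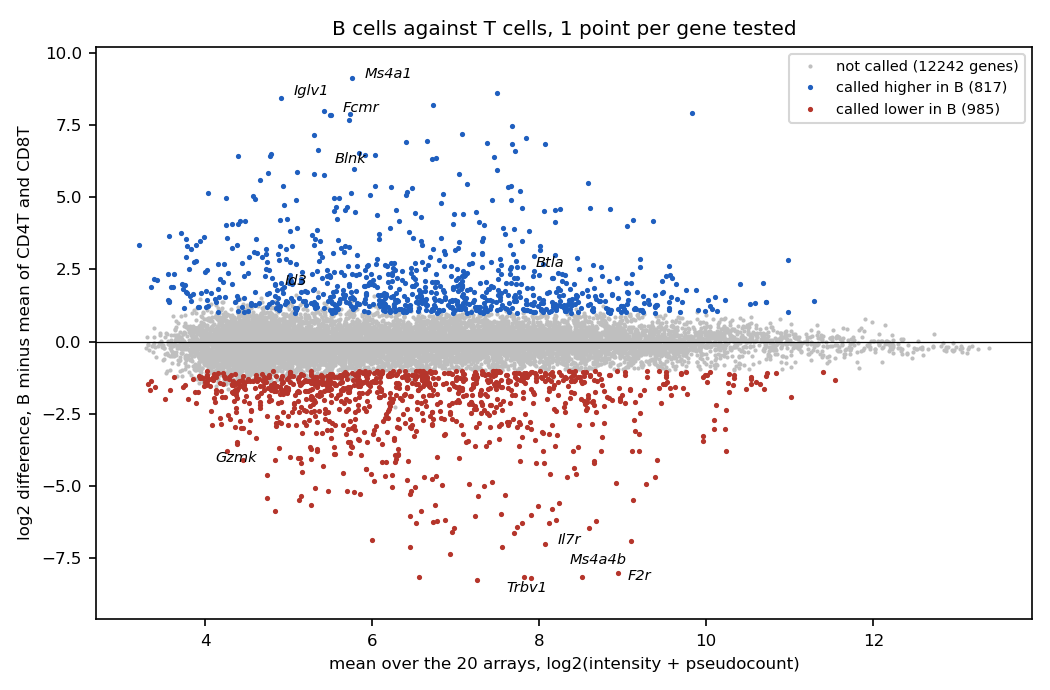
Difference between B and the T mean (vertical axis, log2) against the mean over all 20 arrays (horizontal axis, log2), 1 point for each of 14044 genes, with the 817 genes called higher in B in blue and the 985 called lower in red. Ms4a1 is at the top with 9.14, and 6 genes, Trbv1 and F2r among them, lie at or below -8.

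The gene lists below were drawn up by role, with earlier results of these data known. Their counts stand beside the shares above as a description, in place of a test of the list, and are no independent evidence of a list's direction.

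**Figure D2:**
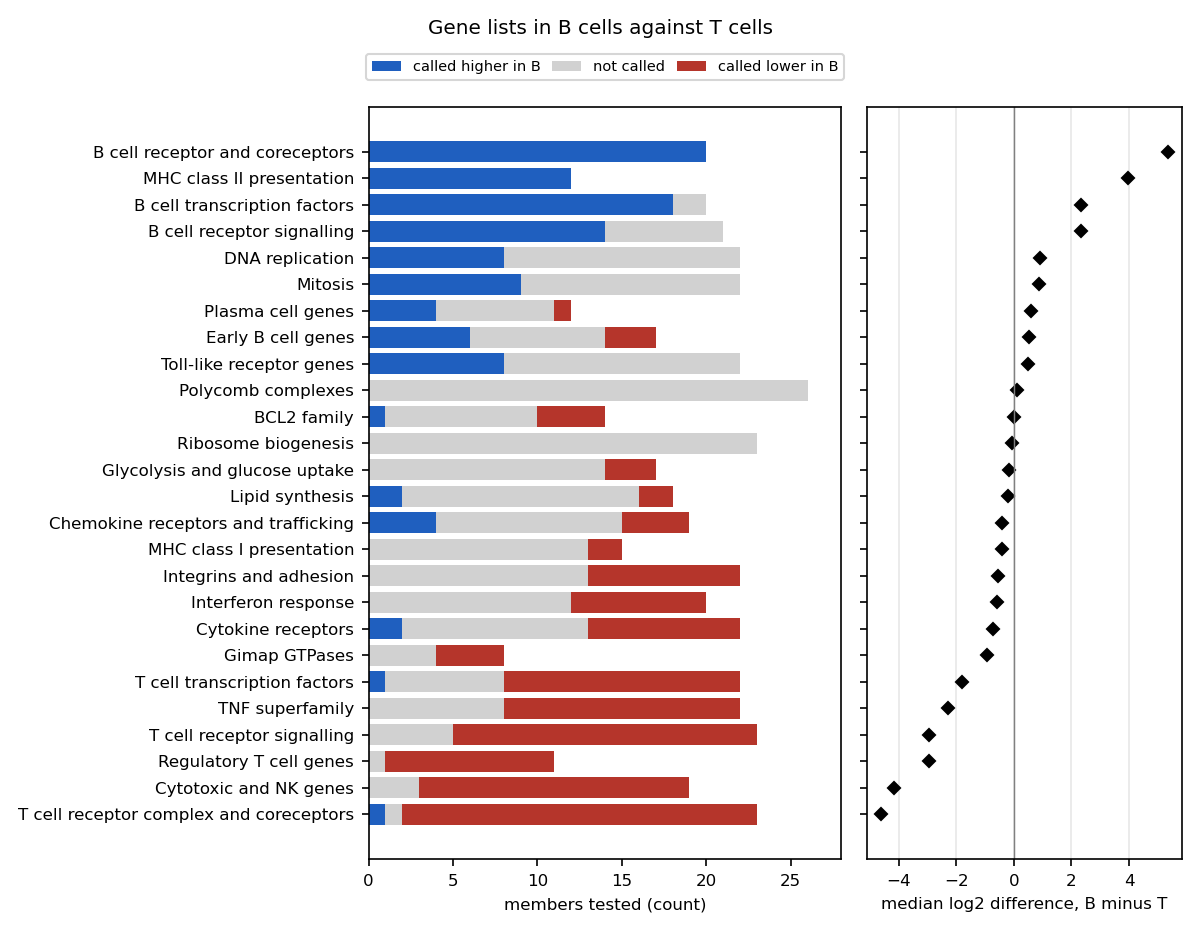
Members of 26 gene lists called higher in B (blue), lower (red) or not called (grey), with the median log2 difference of each list's tested members at right. The lists of the B cell receptor and of MHC class II are blue throughout, the list of the T cell receptor complex is red but for 2 members, and the ribosome biogenesis and Polycomb lists have no called member.

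All 20 tested members of the list of the B cell receptor and its coreceptors were called higher in B, with a median log2 difference of 5.34. Cd79a, one signalling chain of the receptor, read 1389 and 1334 in the B arrays, 9.10 and 11.02 in the CD4T arrays and 46.8 and 20.4 in the CD8T arrays (log2 difference 5.76 ± 0.37, limma adjusted p 5.2e-10). Its partner Cd79b read 8146 and 6798 in the B arrays, 78.6 and 46.3 in the CD4T arrays and 121 and 125 in the CD8T arrays (log2 difference 6.32 ± 0.38, limma adjusted p 2.3e-10). Both B arrays lay above all 4 T arrays, by far more than the 2 B replicates differed.

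The receptor's own heavy chain gave the smallest difference of the list. Ighm, the constant region of IgM, read 9754 and 7442 in the B arrays, 3283 and 3736 in the CD4T arrays and 2695 and 2156 in the CD8T arrays (log2 difference 1.55 ± 0.24, limma adjusted p 5.6e-05). Both B arrays lay above all 4 T arrays. Another probe set of Ighm read 10908 and 8869 in the B arrays, 1726 and 1953 in the CD4T arrays and 1374 and 1401 in the CD8T arrays (log2 difference 2.62 ± 0.22, limma adjusted p 2.7e-08). Of its 6 further probe sets 1 was called higher in B and 5 were not called. For V segments of the antibody genes, Iglv1 read 4038 and 3319 in B and 2.31 to 4.92 in T, Igkv8-30 read 3360.1 and 3866 against 5.29 to 15.2, and Ighv14-2 read 3235 and 3196 against 18.6 to 40.4. Probe sets of V segments can bind related segments.

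The coreceptors that set the receptor's threshold differed strongly. Cr2 (CD21), which binds complement on antigen, read 518 and 521 in the B arrays, 8.69 and 8.57 in the CD4T arrays and 17.6 and 4.74 in the CD8T arrays (log2 difference 5.04 ± 0.39, limma adjusted p 8.1e-09). Cd81, a tetraspanin of the B cell coreceptor, read 766 and 683 in the B arrays, 278 and 253 in the CD4T arrays and 30.4 and 27.6 in the CD8T arrays (log2 difference 2.89 ± 0.21, limma adjusted p 2.6e-09), and here CD4T lay above CD8T in every array (CD4T minus CD8T 2.93 ± 0.24, limma adjusted p 4.7e-07). Among the inhibitory receptors, Cd22 differed by 5.32 ± 0.29, Siglecg by 5.37 ± 0.41, Cd72 by 3.58 ± 0.38 and Fcgr2b, the inhibitory Fc receptor, by 1.81 ± 0.18. The level of Fcgr2b was higher still in NK arrays: it read 701 and 757 in B, 342 and 289 for CD4T, 141 and 122 for CD8T and 1427 ± 59.7 (SD, n = 2) in NK arrays. The 13 monocyte markers summed to 24202 and 21177 in these NK arrays, beside 18006 and 19716 in the monocyte arrays and 19441 and 15633 in the neutrophil arrays. The 13 neutrophil markers summed to 18605 and 14305 in the NK arrays. The part of such cells in the NK value was not tested. The Fc receptor relatives Fcrla and Fcrl1 differed by 6.51 ± 0.48 and 5.09 ± 0.29, and Fcer2a (CD23) by 5.41 ± 0.38. Fcmr, the receptor for the Fc part of IgM, read 5169.7 and 4158 in B and 4.26 to 32.0 in T, a difference of 7.84 ± 0.36.

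Receptors for survival and help signals were higher in B as well. Tnfrsf13c, the BAFF receptor on which mature B cells depend, read 2874 and 2805 in the B arrays, 51.2 and 14.3 in the CD4T arrays and 20.6 and 20.7 in the CD8T arrays (log2 difference 6.52 ± 0.35, limma adjusted p 4.6e-11). Tnfrsf13b (TACI), another BAFF receptor, read 722 and 776 in B and 56.2 to 121 in T, and Cd40, through which CD4 T cells help B cells, read 957 and 1035 in B and 1.18 to 19.0 in T. The ligand of CD40 was not called: Cd40lg read 23.9 and 6.01 in the B arrays, 6.26 and 39.3 in the CD4T arrays and 24.6 and 14.5 in the CD8T arrays (log2 difference -0.35 ± 0.59, limma adjusted p 0.77), with B and T arrays overlapping at low intensity. The ligand BAFF itself (Tnfsf13b) read 9.98 and 16.3 in B and 1321 ± 376 (SD, n = 2) in monocytes. Cd180 and Ly86, which form a Toll-like receptor complex on B cells, differed by 2.32 ± 0.36 and 6.86 ± 0.45.

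The signalling chain below the receptor was compared step by step with its T cell counterpart. Of 21 tested members of the B cell list 14 were called higher in B and none lower (median 2.32), and of 23 of the T cell list 18 were called lower in B and none higher (median -2.94). At the tandem SH2 kinase, Syk read 2852 and 2621 in the B arrays, 6.39 and 29.8 in the CD4T arrays and 17.7 and 22.0 in the CD8T arrays (log2 difference 6.83 ± 0.49, limma adjusted p 2.6e-09). Its T cell relative Zap70 was not called with the probe set kept by the rule of highest mean, which read 110.2 and 76.3 in the B arrays, 137 and 102 in the CD4T arrays and 106 and 82.0 in the CD8T arrays. The other probe sets of Zap70 separated the groups: one read 31.7 and 11.2 in the B arrays, 823 and 653 in the CD4T arrays and 738 and 743 in the CD8T arrays (log2 difference -4.82 ± 0.26, limma adjusted p 3.3e-11), and the other read 14.8 and 12.3 in the B arrays, 530.2 and 449 in the CD4T arrays and 300.4 and 359 in the CD8T arrays (log2 difference -4.33 ± 0.33, limma adjusted p 4.5e-09). These 2 probe sets were looked at after their values were seen. On both of them the T arrays lay above the B arrays with no overlap.

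Among the Src family kinases, Blk read 1229 and 1524 in the B arrays, 31.7 and 47.9 in the CD4T arrays and 29.8 and 39.0 in the CD8T arrays (log2 difference 4.99 ± 0.46, limma adjusted p 9.7e-08). Fyn read 95.1 and 122 in the B arrays, 1324 and 991 in the CD4T arrays and 981 and 1196 in the CD8T arrays (log2 difference -3.29 ± 0.33, limma adjusted p 2.5e-07), so its B level was low but above 90 on both arrays. Of the Tec family kinases, Btk, mutated in X-linked agammaglobulinaemia, read 579.8 and 576 in B and 4.15 to 15.5 in T (log2 difference 5.10 ± 0.36, limma adjusted p 1.9e-09). Txk, on the T side, read 22.9 and 9.31 in B and 234 to 486 in T (log2 difference -3.93 ± 0.38, limma adjusted p 1.7e-07).

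The adaptors divided by lineage too. Blnk, the scaffold that SYK phosphorylates, read 1710.2 and 1679 in the B arrays, 10.8 and 20.6 in the CD4T arrays and 3.14 and 11.4 in the CD8T arrays (log2 difference 6.63 ± 0.33, limma adjusted p 1.8e-11). Lcp2 (SLP-76), the corresponding scaffold of T cells, read 3.13 and 7.93 in the B arrays, 1241 and 1056 in the CD4T arrays and 685 and 834 in the CD8T arrays (log2 difference -6.28 ± 0.20, limma adjusted p 5.2e-14). Lat, its membrane partner, differed by -6.60 ± 0.40, Fyb by -6.88 ± 0.20 and Skap1 by -6.46 ± 0.27, all lower in B. Outside T cells these adaptors parted: Fyb read 2308 ± 174 in NK cells and 1199.7 ± 221 in monocytes, and Lat 157 ± 4.63 and 5.19 ± 1.11 (SD, n = 2). On the B side, Bank1, a scaffold for calcium release, read 3828 and 3959 in B and 37.9 to 102 in T (log2 difference 5.80 ± 0.33, limma adjusted p 8.1e-11), and Pik3ap1 (BCAP), which recruits PI3 kinase, differed by 3.12 ± 0.23.

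The 2 phospholipase C gamma genes ran in opposite directions. Plcg2 read 1712 and 1587 in the B arrays, 18.0 and 69.6 in the CD4T arrays and 81.5 and 121 in the CD8T arrays (log2 difference 4.61 ± 0.28, limma adjusted p 3.1e-10), and within T it was higher in CD8T (CD4T minus CD8T -1.29 ± 0.33, limma adjusted p 0.031). Plcg1 read 112 and 143 in the B arrays, 1142 and 1121 in the CD4T arrays and 1007 and 809 in the CD8T arrays (log2 difference -2.94 ± 0.38, limma adjusted p 8.9e-06). Protein kinase C was less symmetric. Prkcq (PKC theta) read 5.69 and 4.44 in B and 1628 to 2211 in T, while Prkcb (PKC beta) read 2626 and 2602 in B and 755 to 1113 in T (1.52 ± 0.32). The Ras exchange factors were asymmetric too: Rasgrp3 read 833 and 905 in B and 1.45 to 6.24 in T (6.42 ± 0.40), while Rasgrp1, usually named for T cells, read 1009 and 944 in B and 1051 to 1496 in T (-0.28 ± 0.27, limma adjusted p 0.56).

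**Figure D3:**
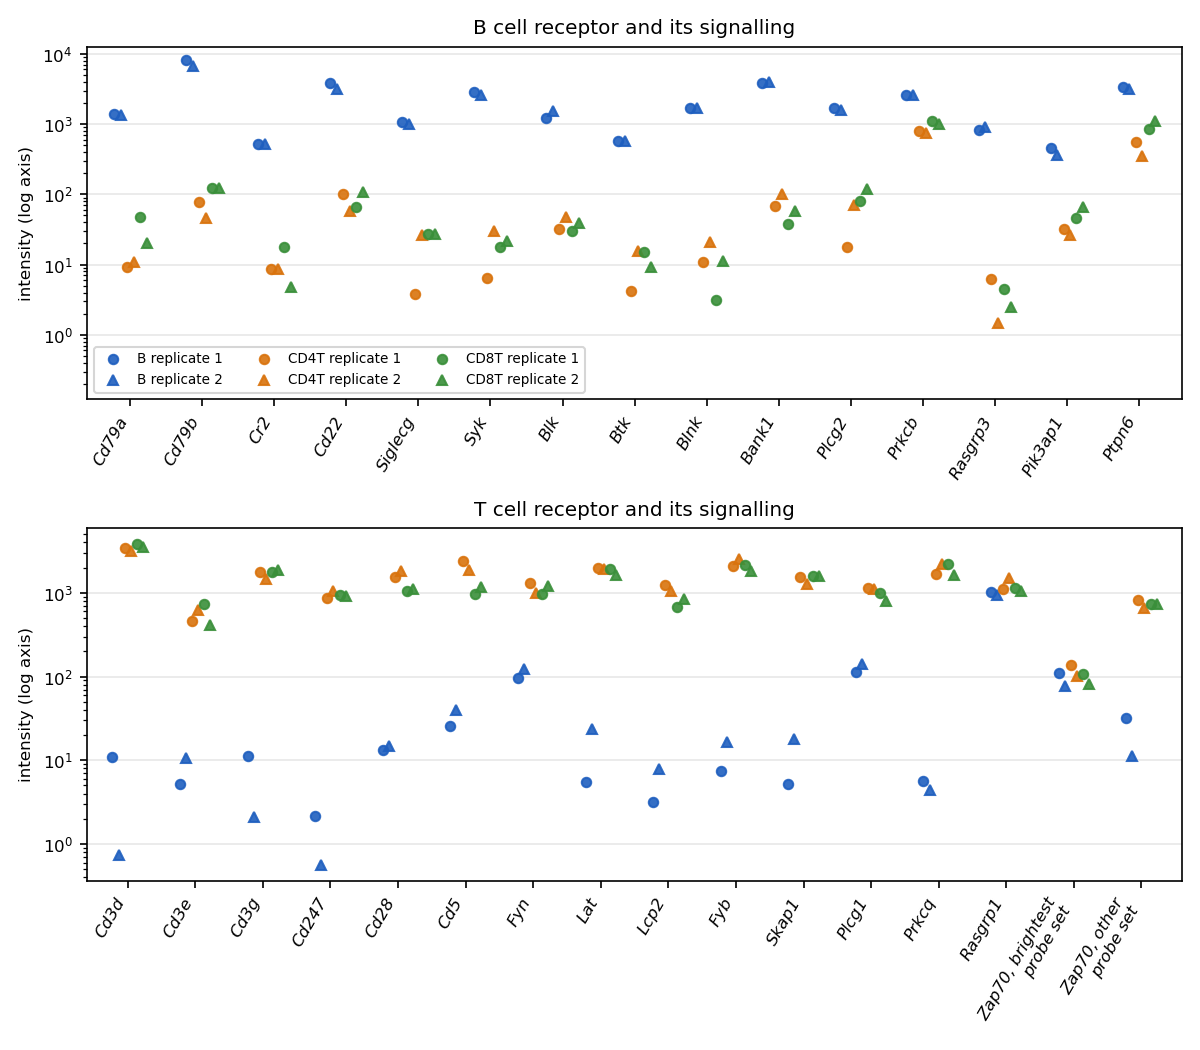
Intensity on a log axis for genes of the B cell receptor and its signalling (top) and of the T cell receptor and its signalling (bottom), 1 symbol per array, B in blue, CD4T in orange and CD8T in green. The 15 genes at the top lie higher in both B arrays than in the 4 T arrays. At the bottom the T arrays are higher, except for Rasgrp1 (944 to 1496) and the brightest probe set of Zap70 (76.3 to 137), where B and T lie together.

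Of the remaining steps, Vav2 was called higher in B (2.70 ± 0.38), and Vav1 and Vav3 were not called (differences 0.48 and -0.66, limma adjusted p 0.13 and 0.052). Bcl10, which links the receptor to NF-kappaB, was at the edge of the rule (1.001 ± 0.12) and was not called without B replicate 2 (0.93, limma adjusted p 4.4e-04), CD4T replicate 2 (0.99, limma adjusted p 2.5e-05) or CD8T replicate 1 (0.998, limma adjusted p 2.5e-05). Its partner Malt1 was not called (0.92 ± 0.24). Negative regulators lay on both sides. Ptpn6 (SHP-1), the phosphatase that CD22 recruits, read 3414 and 3139 in B and 348 to 1097 in T (2.32 ± 0.19), while Ptpn22, a phosphatase acting on Src family kinases, read 188 and 196 and 731 to 1369 (-2.40 ± 0.22). The diacylglycerol kinases Dgka and Dgkz, which limit Ras signals, differed by -2.01 ± 0.16 and -1.47 ± 0.14, and both were expressed in B, at 704 and 766 and 1213 and 1256. The calcium-regulated factor Nfatc2 differed by -2.21 ± 0.23, and Nfatc1 did not pass (-0.24 ± 0.20, limma adjusted p 0.51).

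On the T side, 21 of 23 tested members of the T cell receptor complex and coreceptor list were called lower in B. Of the others 1 was called higher and 1, Slamf1, was not called with its kept probe set. The median log2 difference was -4.61. Cd247, the zeta chain, read 2.18 and 0.565 in the B arrays, 859 and 1064 in the CD4T arrays and 942 and 906 in the CD8T arrays (log2 difference -6.87 ± 0.36, limma adjusted p 3.2e-11). Cd28, the main costimulatory receptor, read 13.4 and 14.9 in the B arrays, 1532 and 1808 in the CD4T arrays and 1066 and 1102 in the CD8T arrays (log2 difference -6.02 ± 0.37, limma adjusted p 2.7e-10). Cd3g differed by -7.10 ± 0.38, and the V segment probe sets Trbv1 and Trav9d-3 by -8.18 ± 0.32 and -6.61 ± 0.24. The B arrays were near or below the pseudocount for most of these, so the sizes of their differences depend on it. Cd5 read 25.6 and 39.9 in B and 959 to 2424 in T, and Cd2 was only partly lower in B, at 1473 and 1467 against 2679 to 3416 (-1.01 ± 0.18), and its call was lost without CD4T replicate 1 (-0.96, limma adjusted p 0.0022) or CD8T replicate 1 (-0.99, limma adjusted p 0.002). Cd27, a marker of memory B cells in humans and of T cells, read 1.99 and 18.0 in B and 489 to 549 in T. The kept probe set of Cd8a read 252 and 264 in CD8T and 63.7 and 9.26 in B, and its difference (-1.74 ± 0.49) was -2.81 without B replicate 1, and not called without B replicate 2 (-0.67, limma adjusted p 0.50) or CD4T replicate 2 (-1.39, limma adjusted p 0.070). Another probe set of Cd8a, looked at after its values were seen, read 2.47 and 10.1 in the B arrays, 18.0 and 5.54 in the CD4T arrays and 2201 and 2068 in the CD8T arrays.

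The exception was Btla, an inhibitory receptor of the CD28 family shared by both lymphocytes. It read 5643 and 4837 in the B arrays, 1165 and 1337 in the CD4T arrays and 576 and 646 in the CD8T arrays (log2 difference 2.57 ± 0.36, limma adjusted p 1.9e-05). B arrays lay above CD4T and CD4T above CD8T, and B was also called higher than each of the other populations. Other inhibitory receptors of the list ran the other way: Ctla4 read 3.48 and 2.82 in B, 1095 and 1512 for CD4T and 49.7 and 2.13 for CD8T, and Pdcd1 (PD-1) read 11.3 and 8.30, 379.5 and 232 and 30.7 and 30.6.

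Among 20 tested B cell transcription factors, 18 were called higher in B and none lower (median 2.33). Ebf1 read 548 and 513 in the B arrays, 13.6 and 17.2 in the CD4T arrays and 7.67 and 4.99 in the CD8T arrays (log2 difference 4.99 ± 0.54, limma adjusted p 7.3e-07). Pou2af1 (OCA-B), the coactivator that binds octamer factors, read 2870.4 and 3057 in the B arrays, 60.9 and 60.4 in the CD4T arrays and 100.1 and 151 in the CD8T arrays (log2 difference 4.99 ± 0.43, limma adjusted p 3.6e-08). Mef2c and Bcl11a had T arrays near or below the pseudocount: Mef2c read 1285 and 1258 in B and 0.912 to 7.02 in T, and Bcl11a read 871 and 1078 and 3.11 to 11.97. Both genes were also bright elsewhere. Mef2c read 798 ± 97.8 and Bcl11a 699 ± 102 (SD, n = 2) in KSL cells, the stem and progenitor fraction. Spi1 (PU.1), dosed low in B cells and high in myeloid cells, read 139 and 157 in B, 29.3 to 50.8 in T and 578 ± 97.0 (SD, n = 2) in monocytes. Its relative Spib read 4448 and 3702 in B and 5.64 to 16.5 in T. Of factors of later stages, Irf4 read 398 and 458 in the B arrays, 158 and 73.4 in the CD4T arrays and 28.3 and 31.1 in the CD8T arrays (log2 difference 2.74 ± 0.43, limma adjusted p 7.0e-05), Bach2 differed by 1.56 ± 0.26 and Bcl6 by 1.43 ± 0.36. Bcl6 was not called without B replicate 1 (1.24, limma adjusted p 0.11). Ikzf3 (Aiolos) and Klf2 were not called (0.29 ± 0.28 and 0.31 ± 0.74, limma adjusted p 0.57 and 0.84).

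The E proteins and their inhibitors, the Id proteins, did not all run one way. Tcf3 (E2A) read 487 and 484 in B and 127 to 159 in T (1.71 ± 0.19), and Tcf4 (E2-2) read 554 and 459 and 10.05 to 36.1 (4.46 ± 0.31), whereas Tcf12 (HEB) did not pass (0.01 ± 0.20, limma adjusted p 0.99). Id2 was far lower in B, with 43.0 and 76.1 in the B arrays, 3840.5 and 2283 in the CD4T arrays and 1116 and 1335 in the CD8T arrays (log2 difference -4.89 ± 0.31, limma adjusted p 5.1e-10). Id3 ran the other way, with 742 and 604 in the B arrays, 229.8 and 168 in the CD4T arrays and 148 and 322 in the CD8T arrays (log2 difference 1.66 ± 0.32, limma adjusted p 7.2e-04), and was the only member of the T cell factor list called higher in B. B and T arrays did not overlap for either inhibitor.

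In all, 14 of 22 tested T cell transcription factors were called lower in B (median -1.80). Gata3 read 0.491 and 2.17 in the B arrays, 307 and 319 in the CD4T arrays and 105 and 91.3 in the CD8T arrays (log2 difference -4.51 ± 0.31, limma adjusted p 1.3e-09), with CD4T above CD8T. Lef1 read 73.0 and 85.8 in B and 408 to 987 in T (-2.999 ± 0.29), and Satb1, a chromatin organiser, 749 and 693 and 1591 to 3027 (-1.67 ± 0.18). Tbx21 (T-bet), a factor of effector cells, read 34.4 and 4.26 in the B arrays, 547 and 332 in the CD4T arrays and 251 and 425 in the CD8T arrays (log2 difference -4.16 ± 0.51, limma adjusted p 4.6e-06), and Eomes 5.95 and 17.4, 89.5 and 88.0 and 485 and 616. Ets1 (-0.29 ± 0.36), Nr3c1 (0.10 ± 0.15) and Runx1 (0.41 ± 0.21) were not called with their kept probe sets. A dimmer probe set of Ets1 was called lower in B (-1.003 ± 0.29, limma adjusted p 0.018). Another read 968 and 1190 in B and 1538 to 2076 in T and fell short of the size asked (-0.72 ± 0.22, limma adjusted p 0.029). The remaining probe set of Ets1 was not called (-0.41 ± 0.29). Tcf7 (TCF-1) was not analysed here. Bcl11b and its relative Bcl11a divided the lineages, with Bcl11b at 2.85 and 3.27 in B and 2325 to 3116 in T.

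All 12 tested genes of the MHC class II pathway were called higher in B, with a median log2 difference of 3.97. The genes of the class II chains are switched on by CIITA, which acts through factors bound to shared elements upstream of these genes. Among the elements is the Y box that NF-Y binds. Upstream sequences of 3 members are shown because they hold that element. They come from the RefSeq table of GRCm38.p6, on the gene's strand, and the capitals mark the Y box letters CTGATTGG, which contain the inverted CCAAT box. The first is chr17:34287837-34287904 (minus strand), with the motif starting 51 bases before the gene's start, the next chr17:34305775-34305842 (plus strand), 62 bases before, and the last chr17:34092303-34092370 (plus strand), 46 bases before.
H2-Aa: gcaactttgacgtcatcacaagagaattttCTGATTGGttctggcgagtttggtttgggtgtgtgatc
H2-Eb1: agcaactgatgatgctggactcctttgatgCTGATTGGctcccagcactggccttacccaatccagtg
H2-Oa: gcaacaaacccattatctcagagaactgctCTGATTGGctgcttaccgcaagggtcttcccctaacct
In the 250 bases upstream, on either strand, these letters were present in 3 of the 9 members with a listed promoter (33.3%), beside 5.93% of 11281 tested genes with one and 4.433% of all 27025 genes in the table. A match is a description of the letters in this window.

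H2-Eb1, a beta chain, read 7899.9 and 7192 in the B arrays, 37.8 and 41.1 in the CD4T arrays and 31.2 and 34.6 in the CD8T arrays (log2 difference 7.46 ± 0.36, limma adjusted p 1.2e-11). Cd74, the invariant chain that guards the groove until the endosome, read 7285 and 6302 in the B arrays, 92.5 and 80.2 in the CD4T arrays and 32.2 and 29.9 in the CD8T arrays (log2 difference 6.84 ± 0.24, limma adjusted p 1.4e-13). The peptide loading genes differed less evenly. H2-DMa, a chain of the peptide exchanger, read 1669.5 and 1491 in B and 151 to 196 in T (3.17 ± 0.24), while H2-DMb2 read 1489 and 1834 and 4.39 to 28.1 (6.45 ± 0.35). H2-Oa and H2-Ob form the inhibitor of that exchanger. H2-Oa read 1057 and 1306 in the B arrays, 84.8 and 113 in the CD4T arrays and 279.6 and 248 in the CD8T arrays. H2-Ob read 2876 and 3138 in the B arrays, 233 and 414 in the CD4T arrays and 354 and 347 in the CD8T arrays. The T arrays of both were well above the pseudocount, and H2-Oa was higher in CD8T than in CD4T (CD4T minus CD8T -1.37 ± 0.33, limma adjusted p 0.020). Ciita, the switch itself, read 131 and 136 in B and 14.0 to 27.1 in T (2.29 ± 0.34).

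The enzymes of antigen breakdown varied most. Ifi30 (GILT), which reduces disulfides, read 6404 and 5443 in B and 237 to 391 in T (4.23 ± 0.23), and Lgmn, an asparagine endopeptidase, 177 and 202 and 1.70 to 21.1 (3.70 ± 0.52). Ctss (cathepsin S), which trims the invariant chain, was at 4531 and 4116 in B and still at 2001 to 2201 in T (1.07 ± 0.22), a call lost without B replicate 1 (0.999, limma adjusted p 0.028). Napsa, an aspartic protease, was among the largest differences of all genes, at 2494 and 2467 in B and 1.52 to 20.2 in T (7.06 ± 0.37). Class II genes were not confined to B: H2-Aa read 5602 ± 556 in B, 4162 ± 706 in NK and 2929 ± 621 in monocytes (SD, n = 2). The NK arrays also carried monocyte markers, summing to 21177 to 24202, beside 18006 to 19716 in the monocyte arrays and 15633 to 19441 in the neutrophil arrays. The 13 neutrophil markers summed to 14305 to 18605 in the NK arrays, beside 100050 to 118280 in the neutrophil arrays. The part of such cells in the NK values was not tested. Against all 9 other populations, 5 of the 12 were called higher in B (H2-DMb2, H2-Oa, H2-Ob, Cd74 and Ifi30).

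**Figure D4:**
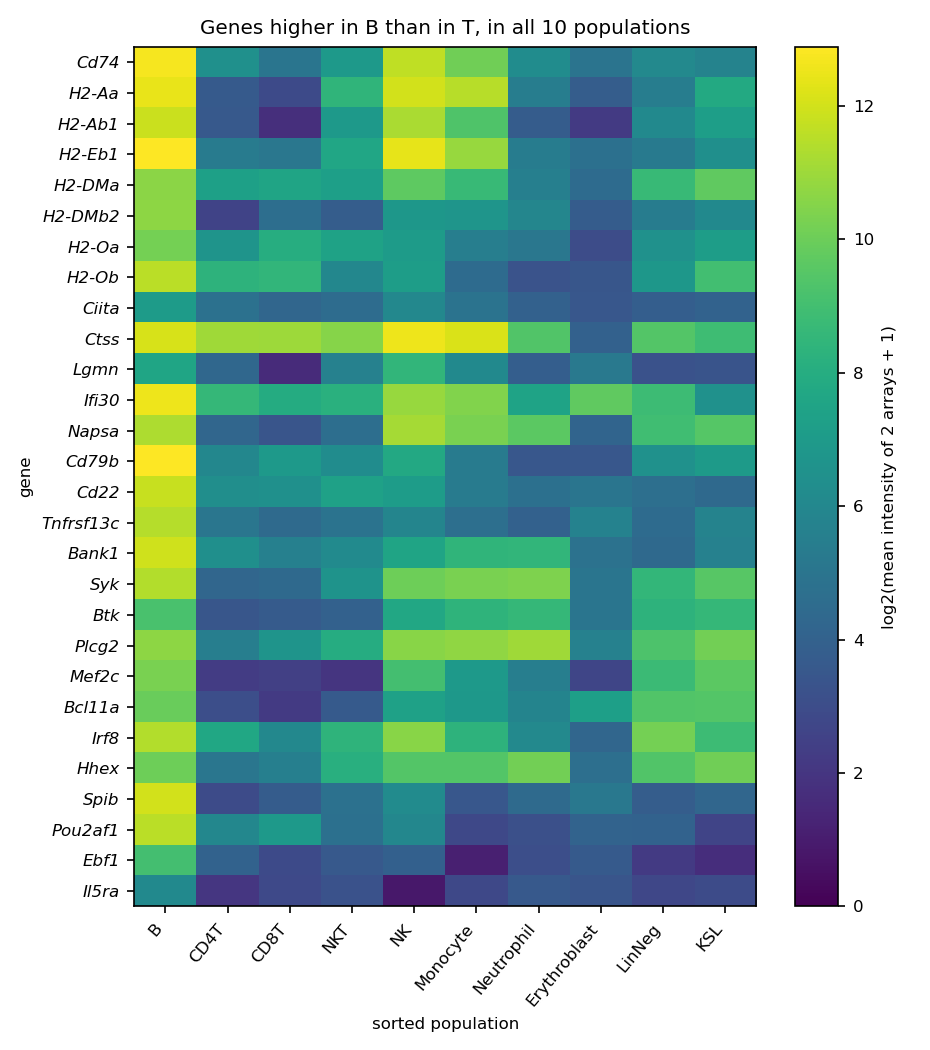
Mean intensity of the 2 arrays of each of the 10 populations (colour, log2 of intensity + 1) for 28 genes higher in B than in T. Of the antigen presentation genes, listed from Cd74 to Napsa, Cd74, H2-Aa, H2-Eb1, Ctss, Ifi30 and Napsa are bright in the NK and monocyte columns too, while Cd79b, Cd22, Tnfrsf13c, Spib, Pou2af1 and Ebf1 are brightest in the B column.

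Of 15 tested genes of MHC class I presentation, none was called higher and 2 were called lower in B (median -0.42). Of all genes tested, 5.82% were called higher and 7.01% lower. In 9 of the 15 both B arrays lay below all 4 T arrays, beside 19.6% of all genes tested. With no size asked, 11 had a limma p under 0.05 before adjustment, and the share of all genes at that level is not given here. B2m, the shared light chain, read 5586 and 5174 in the B arrays, 7196 and 6606 in the CD4T arrays and 7876 and 7188 in the CD8T arrays (log2 difference -0.42 ± 0.10, limma adjusted p 0.0063), lower in both B arrays but short of the size asked. Nlrc5, the transactivator of class I genes, read 212 and 235 in the B arrays, 609 and 528 in the CD4T arrays and 588 and 639 in the CD8T arrays (log2 difference -1.37 ± 0.25, limma adjusted p 3.5e-04), and Erap1, which trims peptides, differed by -1.46 ± 0.24. H2-K1 did not pass with its brightest probe set (-0.22 ± 0.13). Of its other probe sets 2 were called lower in B, the larger with a log2 difference -1.78 ± 0.15, limma adjusted p 1.9e-08. Another was lower but short of the size asked (-0.66 ± 0.14, limma adjusted p 0.0015). All of these probe sets, the brightest included, can bind related class I genes.

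The B cells were next read for stage, by genes of the precursors in the marrow and of plasma cells. Of 17 tested early B cell genes 6 were called higher and 3 lower in B (median 0.52). Vpreb3, a protein of the pre-B receptor assembly, read 968 and 944 in the B arrays, 5.50 and 15.01 in the CD4T arrays and 11.2 and 8.05 in the CD8T arrays (log2 difference 5.88 ± 0.42, limma adjusted p 2.8e-09). Rag1, which cuts receptor genes, was low but read 46.3 and 52.2 in the B arrays, 0.417 and 0.708 in the CD4T arrays and 0.904 and 0.606 in the CD8T arrays (log2 difference 2.92 ± 0.46, limma adjusted p 7.9e-05), and Rag2 stayed at 3.64 and 6.03 in B. Cd93, carried by immature B cells, read 194 and 277 in B and 23.3 to 63.6 in T (2.28 ± 0.25), and Sox4 241 and 418 and 37.3 to 73.9 (2.49 ± 0.32). Blnk and Bub1b, a mitotic checkpoint kinase that is on the mitosis list too, completed the 6. The surrogate light chain genes Vpreb1 and Igll1 read 8.06 and 10.9 and 39.3 and 28.3 in B with their kept probe sets and were not called, while another probe set of Igll1 read 43.7 and 53.1 in B and 1.13 to 22.5 in T (log2 difference 1.65 ± 0.49, limma adjusted p 0.024). Il7r, needed by B precursors and kept by resting T cells, read 32.2 and 51.6 in the B arrays, 5031 and 6523 in the CD4T arrays and 7239 and 5715 in the CD8T arrays (log2 difference -6.99 ± 0.35, limma adjusted p 1.7e-11). Dntt and Lef1 were the other 2 called lower. Dntt (-1.93 ± 0.55) lost its call when B replicate 1, B replicate 2, CD4T replicate 2 or CD8T replicate 1 was left out, at -1.88, -1.98, -1.74 and -1.45.

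The promoter of Vpreb3, like that of Blnk, holds the octamer ATTTGCAT, the element on antibody genes that the factors OCT-1 and OCT-2 bind with OCA-B. Both windows are shown because these genes were among the 65 with a listed promoter that were higher in B by a log2 difference of 4 or more. They are from RefSeq on GRCm38.p6, on the gene's strand with the octamer in capitals, at chr19:40994314-40994381 (minus strand, 130 bases before the start) and chr10:75948225-75948292 (plus strand, 45 bases before).
Blnk: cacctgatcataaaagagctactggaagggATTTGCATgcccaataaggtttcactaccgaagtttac
Vpreb3: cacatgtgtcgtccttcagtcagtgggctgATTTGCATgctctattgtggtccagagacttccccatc
On either strand of the 250 upstream bases the octamer was present in 4 of these 65 genes (6.154%), in 0 of the 66 lower by 4 or more, in 1.489% of tested genes and in 1.813% of all genes of the table. Among all called genes with a listed promoter it was present in 17 of 636 higher in B (2.673%) and 13 of 771 lower (1.686%). It was also present at Prkcb, Ccr6 and Cnr2 among called members of the lists and at Tlr9, Il4ra, Phc2 and Srebf2 among those not called. The Y box, for its part, was present in 52 of 636 genes called higher in B (8.176%) and 31 of 771 called lower (4.021%). At a log2 difference of 4 or more it was present in 5 of 65 higher (7.692%) and 3 of 66 lower (4.545%). An ETS motif of the Spi-B and PU.1 type was present in 27 of the 636 (4.245%) and 31 of the 771 (4.021%). A Runx motif was present in 8 (1.258%) and 12 (1.556%). No test was made of these counts.

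Plasma cell genes were split. Of 12 tested, 4 were called higher in B and 1 lower (median 0.58). Jchain, the joining chain of secreted IgM and IgA, read 632 and 379 in the B arrays, 7.48 and 28.4 in the CD4T arrays and 17.2 and 10.5 in the CD8T arrays (log2 difference 4.54 ± 0.77, limma adjusted p 1.9e-04), with B replicate 1 the higher of the pair. Mzb1, a chaperone for IgM, read 1502 and 1451 in B and 9.91 to 22.5 in T, and Sdc1 (CD138) read 43.2 and 41.6 and 2.32 to 10.6. The fourth was Herpud1 (1.03 ± 0.14), whose difference was 0.945, 0.981 and 0.999, under the size asked, without B replicate 2, CD4T replicate 1 and CD8T replicate 1. Prdm1 (BLIMP-1), which drives secretion, read 32.0 and 22.6 in the B arrays, 164 and 156 in the CD4T arrays and 41.4 and 38.8 in the CD8T arrays (log2 difference -1.39 ± 0.28, limma adjusted p 0.0011), lowest in B. Xbp1 was not called (0.81 ± 0.12), and Igha, the IgA heavy chain, read 19.4 and 28.5 in B and 31.5 to 59.4 in T.

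Genes of Toll-like receptors and their helpers were called higher in B in 8 of 22 and lower in none (median 0.50). Unc93b1, which carries nucleic acid sensing receptors to the endosome, read 1056 and 1073 in the B arrays, 88.6 and 71.8 in the CD4T arrays and 48.5 and 50.3 in the CD8T arrays (log2 difference 3.94 ± 0.26, limma adjusted p 9.5e-10). Tlr4 read 73.2 and 95.4 in the B arrays, 1.27 and 2.77 in the CD4T arrays and 17.9 and 18.0 in the CD8T arrays (log2 difference 2.62 ± 0.25, limma adjusted p 1.7e-07), low in B and lower in T. Tlr7, Tirap and Irak3 were called as well, at 1.21 ± 0.36, 1.69 ± 0.24 and 2.71 ± 0.36, beside Cd180, Ly86 and Ly96. Tlr9, which B cells use to sense DNA, read 51.1 and 38.4 in B and 16.5 to 41.4 in T and was not called (0.41 ± 0.38), and Myd88, the adaptor common to most of these receptors, was not either (-0.17 ± 0.25). Without B replicate 1 the count was 6. Tlr7 lost its call without B replicate 1 (1.23, limma adjusted p 0.12), B replicate 2 (1.20, limma adjusted p 0.13), CD4T replicate 1 (1.12, limma adjusted p 0.061) or CD8T replicate 1 (1.06, limma adjusted p 0.075). Ly96 (1.29 ± 0.41) lost its call without either B array, CD4T replicate 2 or CD8T replicate 2, at 1.38, 1.20, 1.17 and 1.14.

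Receptors for cytokines were lower in B in 9 of 22 and higher in 2 (median -0.73). Il5ra, a receptor of the B-1 lineage and of eosinophils, read 73.0 and 61.7 in the B arrays, 3.20 and 2.87 in the CD4T arrays and 0.869 and 11.7 in the CD8T arrays (log2 difference 2.78 ± 0.43, limma adjusted p 6.3e-05), and B was called higher in it than in each other population. Il10ra was the other, at 279.7 and 286 in B and 91.2 to 155 in T (limma adjusted p 0.037), and it was not called when any 1 of B replicate 1, B replicate 2, CD4T replicate 1, CD4T replicate 2 and CD8T replicate 1 was left out, at log2 differences of 1.12, 1.08, 1.05, 1.15 and 0.949. Il6ra read 52.1 and 56.5 in B and 204 to 637 in T, and its signalling partner Il6st 62.7 and 66.7 and 289 to 596. Il18r1 and Il18rap, chains of the IL-18 receptor, differed by -6.42 ± 0.28 and -3.63 ± 0.24, Il27ra by -2.32 ± 0.33 and Ifngr1 by -1.74 ± 0.19. Tgfbr2, which reads the growth inhibitor TGF beta, was not called, at 1679 and 1751 in B and 1735 to 1994 in T (-0.08 ± 0.16).

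Homing receptors moved in both directions, with 4 of 19 higher and 4 lower in B (median -0.41). Cxcr5, which leads B cells into follicles, read 841 and 683 in the B arrays, 177 and 142 in the CD4T arrays and 101 and 137 in the CD8T arrays (log2 difference 2.42 ± 0.36, limma adjusted p 4.8e-05). Ccr6 read 450.3 and 561 in the B arrays, 573 and 388 in the CD4T arrays and 17.9 and 49.98 in the CD8T arrays (log2 difference 1.93 ± 0.37, limma adjusted p 6.9e-04), so B and CD4T overlapped and B stood above CD8T (B minus CD8T 3.77, limma adjusted p 2.1e-06). Cnr2, the cannabinoid receptor of immune cells, and S1pr3 were the other 2, at 2.45 ± 0.26 and 3.02 ± 0.41. Cxcr3, a receptor of effector T cells, read 30.5 and 46.2 in the B arrays, 4730.4 and 3273 in the CD4T arrays and 2120.1 and 3308 in the CD8T arrays (log2 difference -6.19 ± 0.22, limma adjusted p 1.9e-13). Cxcr6, Ccr2 and Ccr9 were also lower in B, with differences of -5.03 ± 0.39, -4.87 ± 0.39 and -3.90 ± 0.47. Cxcr4, Ccr7 and S1pr1, which serve recirculation of all lymphocytes, were not called (0.09 ± 0.14, -0.41 ± 0.38 and -0.43 ± 0.26).

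No member of the integrin and adhesion list was called higher in B, and 9 of 22 were lower (median -0.56). Itgb2 and Itgal are the chains of LFA-1. Itgb2 read 470.4 and 504 in the B arrays, 2577 and 2168 in the CD4T arrays and 2104 and 2136 in the CD8T arrays (log2 difference -2.18 ± 0.17, limma adjusted p 1.1e-08). Itgal read 165 and 174 in the B arrays, 959 and 689 in the CD4T arrays and 589.5 and 689 in the CD8T arrays (log2 difference -2.04 ± 0.17, limma adjusted p 2.6e-08). Selplg, the ligand of P-selectin, read 390.1 and 368 in the B arrays, 2571 and 2608 in the CD4T arrays and 3742 and 3667 in the CD8T arrays (log2 difference -3.01 ± 0.23, limma adjusted p 4.8e-09). Itgb7, which pairs with alpha 4 for homing to the gut, differed by -2.36 ± 0.37, and Itga4 itself was not called (-0.42 ± 0.17). Itga6 and Itgae differed by -2.79 ± 0.22 and -5.65 ± 0.45. In each of these called genes the B arrays lay below all 4 T arrays.

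In the TNF superfamily list, which leaves out the B cell receptors of this family named above, 14 of 22 were lower in B and none higher (median -2.27). Among ligands, Fasl, which kills target cells, read 12.4 and 8.96 in B and 209 to 388 in T, Tnfsf10 (TRAIL) 18.4 and 7.58 and 139 to 171, and Tnfsf8 14.0 and 11.8 and 118 to 240.4. Tnfsf11 (RANKL) was split within T, at 2.99 and 1.73 in B, 288 and 179 for CD4T and 14.1 and 15.2 for CD8T. Among receptors, Tnfrsf4 (OX40), Tnfrsf18 (GITR) and Tnfrsf25 differed by -2.68 ± 0.33, -2.95 ± 0.21 and -3.33 ± 0.34, with CD4T above CD8T in each. Traf1, an adaptor, read 69.3 and 58.5 in the B arrays, 788 and 692 in the CD4T arrays and 662 and 961 in the CD8T arrays (log2 difference -3.46 ± 0.21, limma adjusted p 1.9e-10). Ltb (lymphotoxin beta), made by both lymphocytes, read 2337 and 1876 in the B arrays, 2716 and 2278 in the CD4T arrays and 2328 and 2082 in the CD8T arrays and was not called (-0.16 ± 0.29).

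Effector genes were compared next. Of 19 tested cytotoxic and NK genes 16 were called lower in B and none higher (median -4.15). Klrd1 (CD94) read 32.9 and 28.6 in the B arrays, 922 and 981 in the CD4T arrays and 4015 and 3917 in the CD8T arrays (log2 difference -5.70 ± 0.40, limma adjusted p 2.1e-09). Ctsw read 22.7 and 19.4 in the B arrays, 1149 and 920.2 in the CD4T arrays and 2790.5 and 3041 in the CD8T arrays (log2 difference -5.97 ± 0.18, limma adjusted p 2.8e-14), and Prf1 (perforin) 34.4 and 27.5 in the B arrays, 93.4 and 77.3 in the CD4T arrays and 421 and 557 in the CD8T arrays (log2 difference -2.499 ± 0.27, limma adjusted p 9.7e-07). CD8T lay above CD4T in all 3, and CD4T still lay above B. Gzmk read 3.11 and 14.0 in B, 331 and 335 for CD4T and 90.3 and 222 for CD8T. Ncr1, which marks NK cells, read 7.86 to 19.3 in T and 661 ± 108 (SD, n = 2) in NK and was not called. The 6 NK markers summed to 457 to 574 in CD4T and 1508 to 2389 in CD8T, with 79.4 and 99.985 in B, and Klra8, another of them, read 2.40 to 35.5 in T and 3089 ± 209 in NK. The part of such cells in the cytotoxic counts was not tested.

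Because the T side is a mean of 2 populations, unlike T values were looked for. CD4T and CD8T differed in 444 of the 14044 genes (3.16%), and 228 of them were among the 1802, 150 higher in CD4T and 78 higher in CD8T. The 228 were 119 without CD4T replicate 1 and 136 without CD8T replicate 1. The 8 largest with characterised symbols were Ctla4, Maf, Cd8b1, Cd4, Nrp1, Itgb8, S100a4 and Mmp9. Maf, a factor of helper and memory T cells, read 75.1 and 74.2 in the B arrays, 2405 and 1572 in the CD4T arrays and 29.1 and 39.6 in the CD8T arrays (log2 difference -1.79 ± 0.30, limma adjusted p 1.9e-04), so both B arrays lay above CD8T although the T mean was higher. S100a4, a calcium binding protein of memory cells, read 8.74 and 14.5 in the B arrays, 3631 and 2859.8 in the CD4T arrays and 111 and 219 in the CD8T arrays (log2 difference -5.32 ± 0.36, limma adjusted p 1.4e-09), and Itgb8 6.55 and 2.54, 215 and 127 and 2.41 and 0.553. Itgb8 (-1.75 ± 0.44) was not called without B replicate 2 (-1.496, limma adjusted p 0.10). Foxp3, the factor of regulatory T cells, was at 345 and 316 in CD4T, 18.1 and 14.95 in CD8T and 18.5 and 18.4 in B. Of 11 tested regulatory T cell genes 10 were called lower in B (median -2.95), 11 against CD4T alone and 7 against CD8T alone. Ikzf2 (Helios) read 16.6 and 16.1 in the B arrays, 4049.6 and 3526 in the CD4T arrays and 678 and 1067 in the CD8T arrays (log2 difference -6.28 ± 0.33, limma adjusted p 3.5e-11), and Izumo1r 3.82 and 4.65, 843 and 578 and 220.1 and 216.

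Some proliferation genes were higher in B, and the replicates of B were unlike each other there. Of 22 tested mitosis genes 9 were called higher in B, 13 were not called and none was lower (median 0.89). Without B replicate 1 the count was 4, without B replicate 2 it was 14, and with a test of differences beyond 1 (treat, in limma) it was 2. Mki67, the antigen Ki-67, read 1117 and 436 in the B arrays, 462 and 391 in the CD4T arrays and 66.9 and 114 in the CD8T arrays (log2 difference 1.81 ± 0.34, limma adjusted p 5.1e-04), so B replicate 2 lay between the CD4T arrays, and without B replicate 1 it was not called (1.14, limma adjusted p 0.054). Top2a read 671 and 411 in the B arrays, 290.1 and 99.9 in the CD4T arrays and 116 and 180.4 in the CD8T arrays (log2 difference 1.70 ± 0.33, limma adjusted p 7.6e-04), and Ccna2 (cyclin A2) 262 and 161 in the B arrays, 71.0 and 87.4 in the CD4T arrays and 85.2 and 74.4 in the CD8T arrays (log2 difference 1.30 ± 0.21, limma adjusted p 1.1e-04). Without B replicate 1 Ccna2 was not called either (0.96, limma adjusted p 0.013). In Aurkb and Bub1b the B replicates were nearer each other, at 111 and 102 and 100.4 and 77.2 in B against 4.24 to 38.6 and 1.87 to 41.2 in T. Against CD4T 7 of the 22 were called, and against CD8T 12.

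DNA replication genes were called higher in B in 8 of 22 and lower in none (median 0.91), with 7 without B replicate 1, 9 without B replicate 2 and 1 under the treat test. Rrm2, a subunit of ribonucleotide reductase, read 939 and 595 in the B arrays, 305 and 165 in the CD4T arrays and 112 and 102 in the CD8T arrays (log2 difference 2.21 ± 0.30, limma adjusted p 1.4e-05). Cdc6, which loads the replicative helicase, read 103 and 107 in the B arrays, 31.9 and 28.3 in the CD4T arrays and 5.24 and 44.9 in the CD8T arrays (log2 difference 1.89 ± 0.38, limma adjusted p 0.0011), and Gins1 97.8 and 107 in B and 19.5 to 32.8 in T. The helicase genes Mcm2, Mcm4 and Mcm6 were not called (0.33 ± 0.18, 0.10 ± 0.17 and -0.02 ± 0.27). The B levels were below those of dividing populations: Mki67 read 9622 ± 1899 in erythroblasts and 1995 ± 599 (SD, n = 2) in LinNeg, the lineage-negative fraction. Erythroid genes moved with the B replicates, at 412 against 128 for the sum of 10 markers, with Alas2 at 97.1 and 1.04, Slc4a1 at 65.8 and 4.03 and Car2 at 171 and 64.6 in B replicates 1 and 2. Of the 10 markers 1, Car2 (1.03 ± 0.33), was called higher in B and 1, Epor (-1.04 ± 0.34), lower. Car2 was at 0.369 without B replicate 1 and 1.68 without B replicate 2, and its call was also lost without CD4T replicate 1 (0.76), CD8T replicate 1 (1.00) or CD8T replicate 2 (1.05). Epor was not called without B replicate 2 (-0.68, limma adjusted p 0.39), CD4T replicate 2 (-0.93, limma adjusted p 0.11) or CD8T replicate 2 (-0.80, limma adjusted p 0.14). Their part in the proliferation counts was not tested.

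**Figure D5:**
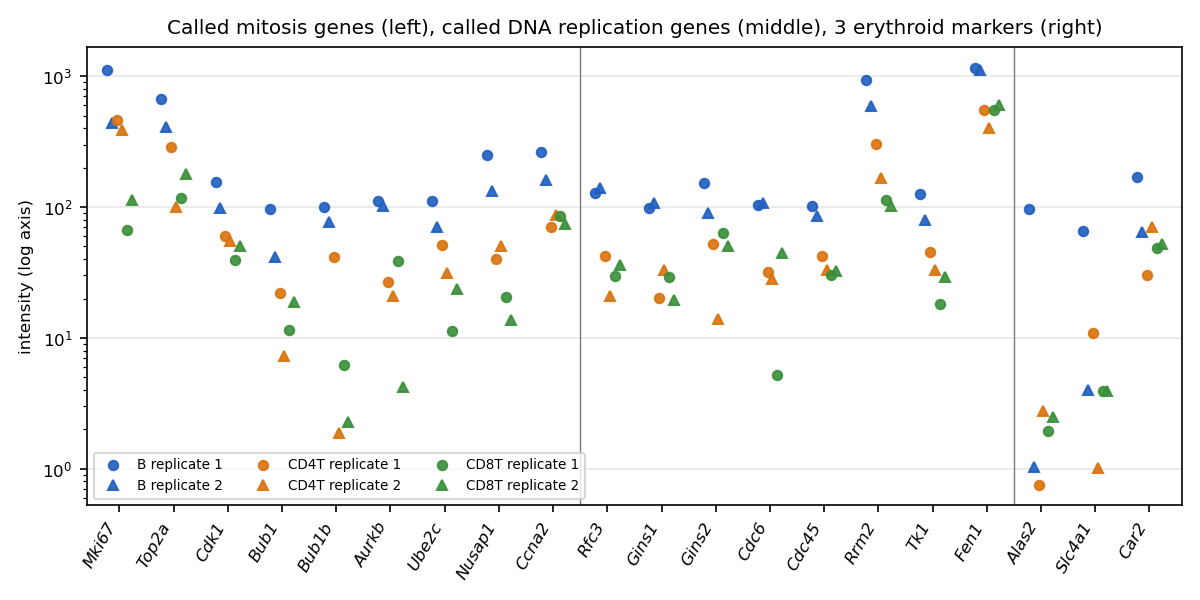
Intensity on a log axis for the 9 called mitosis genes, the 8 called DNA replication genes and 3 erythroid markers, 1 symbol per array. B replicate 1 (blue circles) is above B replicate 2 (blue triangles) in all 9 mitosis genes and for Alas2 reads 97.1 against 1.04, while the replication genes Rfc3, Gins1 and Cdc6 read slightly higher in replicate 2.

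Survival genes of the BCL2 family divided by member, with 1 of 14 higher in B and 4 lower (median 0.00). Bcl2 read 749 and 598 in the B arrays, 1396 and 2185 in the CD4T arrays and 3721 and 4022 in the CD8T arrays (log2 difference -1.95 ± 0.38, limma adjusted p 8.6e-04), and its antagonist Bcl2l11 (BIM) was lower in B as well, at 475 and 375 against 1305 to 2204 (-2.11 ± 0.21). Bmf, another antagonist, was the gene higher in B, with 448 and 466 in the B arrays, 125 and 167 in the CD4T arrays and 94.1 and 79.7 in the CD8T arrays (log2 difference 1.96 ± 0.35, limma adjusted p 3.3e-04). Mcl1 read 8268 and 6664 in the B arrays, 4724 and 4524 in the CD4T arrays and 4107 and 3978 in the CD8T arrays, above all T arrays in both B arrays but short of the size asked (0.78 ± 0.13). A dimmer probe set of Mcl1 was called higher in B (log2 difference 1.16 ± 0.14, limma adjusted p 2.1e-06). Bik and Bbc3 were the other 2 lower, and the count of 4 was 2 without B replicate 2, CD4T replicate 2 or CD8T replicate 2. Bbc3 (-1.08 ± 0.36) lost its call without either B array, CD4T replicate 2, CD8T replicate 1 or CD8T replicate 2, between -0.796 and -1.15, and Bik (-1.67 ± 0.50) without B replicate 2, CD4T replicate 2 or CD8T replicate 2, between -1.10 and -1.61. The Gimap GTPases, which support survival of lymphocytes, were lower in 4 of 8 (median -0.94), with Gimap4 at 1861 and 1385 in the B arrays, 7177 and 6152 in the CD4T arrays and 5655 and 6138 in the CD8T arrays (log2 difference -1.96 ± 0.20, limma adjusted p 2.9e-07), and Gimap1 was not called (-0.05 ± 0.27).

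Interferon response genes were lower in B in 8 of 20 and higher in none (median -0.60). Gbp2 read 145 and 123 in the B arrays, 625 and 511 in the CD4T arrays and 398 and 467 in the CD8T arrays (log2 difference -1.84 ± 0.27, limma adjusted p 4.6e-05), Ifit1 40.5 and 37.0 in B and 130.5 to 329 in T, and Irf1 759 and 751 and 1446 to 1842. Members such as Mx1 (0.18 ± 0.40), Irf9 (-0.17 ± 0.19) and Ifi35 (-0.04 ± 0.14) were not called.

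Metabolic genes differed by single members. Of 18 tested lipid synthesis genes 2 were higher in B and 2 lower (median -0.19). Scd1, a stearoyl-CoA desaturase, read 5025 and 4355 in B and 2.43 to 22.5 in T, while its relative Scd2 read 929 and 863 in the B arrays, 428 and 305 in the CD4T arrays and 317 and 317 in the CD8T arrays (log2 difference 1.39 ± 0.21, limma adjusted p 7.0e-05). The elongases Elovl5 and Elovl6 were lower, with differences of -1.11 ± 0.14 and -1.14 ± 0.31. Elovl6 was not called without B replicate 2 (-0.62, limma adjusted p 0.34), and Fasn and Srebf1 were not called (-0.54 ± 0.22 and -0.68 ± 0.18). Of 17 glycolysis genes 3 were lower in B and none higher (median -0.16): Pfkp read 226 and 208 in the B arrays, 624 and 579.9 in the CD4T arrays and 829.6 and 906 in the CD8T arrays (log2 difference -1.70 ± 0.14, limma adjusted p 3.0e-08), and Hk1 and the glucose transporter Slc2a3 differed by -1.21 ± 0.17 and -1.06 ± 0.14. Slc2a3 fell short of the size asked without B replicate 1 (-0.986) or CD4T replicate 1 (-0.994). In glycolysis 1 gene was called higher without B replicate 1, 2 without CD4T replicate 1 and 1 without CD8T replicate 2. In ribosome biogenesis 0 of 23 genes were called by limma (median -0.04), and in the Polycomb complexes 0 of 26 (median 0.11). With no size asked, 4 and 9 of them had a limma p under 0.05 before adjustment. The share of all genes tested at that level is not given here, so these counts have no background. With the kept probe sets, their largest differences were -0.83 ± 0.36 for Utp4 (limma adjusted p 0.13) and -1.003 ± 0.44 for Pcgf1 (limma adjusted p 0.13). Among the Polycomb genes, dimmer probe sets of Ezh1 and Pcgf5 were called lower in B (log2 differences -1.30 and -2.30, limma adjusted p 0.013 and 5.0e-04).

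Set against the whole series, 154 genes (1.1%) were called higher in B than in each of the other 9 populations. B was the highest of the 10 populations in 364 of the 817 genes called higher than T. In the others a further population was higher, most often erythroblasts (163) and neutrophils (114). Of the 20 receptor genes 15 were among the 154, of the 20 B cell transcription factors 7 and of the 21 signalling genes 6 (Blnk, Blk, Bank1, Vav2, Rasgrp3 and Ralgps2). Among called signalling genes outside the 154, Syk read 2736 ± 164 in B, 1341 ± 165 in neutrophils and 1233 ± 226 in monocytes, and Plcg2 1649 ± 88.7, 2103 ± 367 and 1736 ± 36.6 (SD, n = 2). Among those of the 154 with characterised symbols, the largest gaps to the next population belonged to Ighv14-2, Spib, Tnfrsf13c, Ly6d, Scd1, Fcmr, Fcrla, Cd79b, Niban3 and Cd79a. Niban3 read 3503 and 3670.2 in the B arrays, 104 and 106 in the CD4T arrays and 99.8 and 89.8 in the CD8T arrays (log2 difference 5.08 ± 0.30, limma adjusted p 1.8e-10). Ly6d, a surface protein of the B lineage, read 4929 and 4179 in the B arrays, 5.80 and 28.6 in the CD4T arrays and 11.4 and 12.2 in the CD8T arrays (log2 difference 7.85 ± 0.44, limma adjusted p 8.9e-11). In both the B arrays were far above the 18 others. Srpk3, a splicing factor kinase known from muscle, read 2578 and 2339.7 in B and 4.59 to 24.2 in T (7.15 ± 0.53) and belonged to the 154, whereas Wdfy4, which serves cross-presentation in dendritic cells, read 1766 and 1721 and 1.83 to 19.5 (7.20 ± 0.53) and did not, with 679 ± 34.7 (SD, n = 2) in KSL. Rnase6 was another large difference that NK arrays shared, at 1575 and 1931 in B, 2.44 to 19.2 in T and 1132 ± 54.0 (SD, n = 2) in NK. The NK arrays carried monocyte and neutrophil markers, and the part of such cells in this value was not tested.

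The largest differences in the other direction, beyond the genes above, were Ccl5, Ms4a4b and F2r. Ccl5, a chemokine of effector cells, read 4.29 and 2.91 in the B arrays, 2116 and 1459 in the CD4T arrays and 4308 and 5439 in the CD8T arrays (log2 difference -8.15 ± 0.25, limma adjusted p 2.8e-14), with CD8T above CD4T. Ms4a4b, a tetraspan relative of CD20 in T cells, read 39.4 and 11.8 in the B arrays, 7661 and 7255 in the CD4T arrays and 9550.0 and 8521 in the CD8T arrays (log2 difference -8.13 ± 0.40, limma adjusted p 1.5e-11). F2r, the thrombin receptor PAR1, read 2.56 and 12.6 in the B arrays, 3524 and 2598 in the CD4T arrays and 4173 and 3706 in the CD8T arrays (log2 difference -8.01 ± 0.26, limma adjusted p 6.5e-14). It was bright in most of the series, with 4081 ± 514 in NKT, 2364 ± 133 in NK and 2664 ± 547 in KSL, and low in monocytes at 19.9 ± 4.55 (SD, n = 2). Of the 985 genes called lower in B, CD4T was the highest of the 10 populations in 238, NKT in 182, CD8T in 153 and neutrophils in 149.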

How the data were processed

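RNA of 10 sorted mouse populations was measured on 20 Affymetrix arrays, 2 biological replicates each, after 2 rounds of amplification, per the labels. The deposited values are linear intensities, 1 per probe set and array, which the authors had scaled so that the mean after trimming 2% at each end is 100 on every array, as computed from the values. The software of summarisation is not given in the sources used here, and the number of arrays limits the precision.

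Values were taken as log2(intensity + 6.75), the 25th percentile of all values. Of 45101 probe sets, 34945 named 1 gene, 932 several and 9160 none; 64 were controls. The brightest probe set stood for each of 18193 genes, and 14044 genes whose highest population mean was above the median of all values (22.9) were tested. Adjusted p-values come from limma 3.58.1 in R 4.3.3 (lmFit, eBayes with trend, Benjamini-Hochberg over all genes tested), fitted on all 20 arrays with 1 factor of 10 populations. The contrast was B minus the equally weighted CD4T and CD8T means. The 2 comparisons of B with a single T population, CD4T against CD8T, and B against each of 9 populations used the same fit and rule. The steps were tested on simulated data.

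The members and lists were chosen with earlier results of these data known. Genes are named as list members, as the 15 largest differences each way without overlap of arrays, as the 10 largest gaps of B to the next population, as the 8 largest differences between T populations, and as genes with opposed probe sets. Promoter sequences are those of the RefSeq table for GRCm38.p6. Alternatives were tried for the pseudocount, scaling, filter, probe set, arrays, variance model, test, T side and replicates. For arrays of the same replicate number, deviations from the group means correlated across genes at 0.039 (B and CD4T), -0.025 (B and CD8T) and -0.094 (CD4T and CD8T). Whether such arrays share a source is not in the labels. These correlations cannot decide it, since they are taken over all genes, dim ones included.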

Additional observations from a re-analysis of the deposited data

How the results depend on the processing

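The count of 1802 genes ranged from 1507 to 1757 with 1 array left out and from 1421 to 1953 under the other alternatives except 1, limma's treat test against a log2 difference of 1. That test called 726 genes (340 higher and 386 lower in B), 665 against CD4T, 658 against CD8T, 23 of the genes unlike between T populations, 68 higher in B than in each other population and 0 with opposed probe sets. With each array centred on its median, 918 genes were higher and 860 lower in B. The replicate number as a block gave 1818 (825 and 993) and changed no call of a named gene. Opposed probe sets fell to 1 with the pseudocount at the median and 3 with the filter at the 75th percentile. Leaving out 1 array gave 119 to 195 genes unlike between T populations, 1 to 6 with opposed probe sets, 4 to 14 mitosis genes higher, 1 to 2 cytokine receptors higher, 2 to 4 BCL2 genes lower, 0 to 2 glycolysis genes higher, 1 to 2 lipid genes lower, 0 to 2 erythroid markers higher and 0 to 1 lower, and 1 to 3 plasmacytoid markers lower.

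List counts moved as follows. Under treat, T cell factors higher were 0, MHC class I lower 0, plasma cell genes 2 higher and 0 lower, mitosis 2, DNA replication 1, interferon 2, cytokine receptors higher 1, Gimap 1, BCL2 0 higher and 1 lower, Toll-like receptors 5, lipid 1 higher and 0 lower, glycolysis 1, erythroid 0 and 0, and plasmacytoid lower 1. With the most variable probe set, chosen after seeing the data, B cell receptor signalling had 1 lower, T cell factors 2 higher, glycolysis 5 lower and Polycomb 1 lower. With the mean over probe sets, MHC class I had 1 lower, BCL2 0 higher, lipid 1 and 1, and Polycomb 1 lower. Against CD4T alone, B cell receptor signalling had 1 lower, T cell factors 2 higher, cytokine receptors 1 higher, BCL2 2 lower, lipid 1 lower, glycolysis 1 higher, ribosome 1 higher, Polycomb 1 lower and erythroid 0 higher. Against CD8T alone, the T cell receptor complex had 2 higher, T cell factors 2 higher, plasma cell genes 0 lower, interferon 1 higher, glycolysis 1 higher, ribosome 1 lower and erythroid 0 and 0. Cytokine receptors higher were 1 with the pseudocount at the 5th percentile, the filter at the 75th or no variance trend. Glycolysis had 1 higher with that filter or median centring. With the pseudocount at the median, lipid had 1 lower, erythroid 0 and 0 and plasmacytoid 1 lower. Polycomb had 1 lower with quantile normalization. Erythroid markers lower were 0 with quantile normalization, median centring, no filter or 6 arrays, and those higher 0 with 6 arrays or no variance trend.

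Of 245 named genes, 192 of them called, treat lost 46 calls, the mean over probe sets lost 16 and gained 4, the most variable probe set gained 6, and leaving out 1 array lost 5 to 14. Signs turned in 4: Slamf1 was at -1.25 against CD4T alone, and Foxp3, Itgb8 and Maf were at 0.12, 0.44 and 1.00 against CD8T alone. The cause was not tested. Dim genes are limited most, since their differences depend on the pseudocount.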

Other observations

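In 6 genes B lay between the T populations, called lower than CD4T and higher than CD8T, and in 0 genes the other way round, by limma on the same fit. None of the 6 was called against the T mean. Anxa1 (annexin A1), an anti-inflammatory phospholipid-binding protein, read 302 and 281 in the B arrays, 957 and 916 in the CD4T arrays and 46.2 and 18.3 in the CD8T arrays (B minus CD4T -1.66, B minus CD8T 3.03). Stx11 (syntaxin 11), which takes part in the release of cytotoxic granules, read 192 and 224 in the B arrays, 772 and 665 in the CD4T arrays and 44.3 and 72.6 in the CD8T arrays (-1.76 and 1.75). Slamf1 (CD150), St8sia6, Ikbip and Kif13a were the other 4. In each of them, with the kept probe set, the 2 B arrays stood above both CD8T arrays and below both CD4T arrays. Another probe set of Slamf1 read 2.81 and 4.04 in the B arrays, 119 and 80.8 in the CD4T arrays and 21.2 and 1.76 in the CD8T arrays. It was called lower in B than the T mean (log2 difference -1.99 ± 0.42, limma adjusted p 0.0019). A further probe set of Slamf1 was not called (-0.41 ± 0.43).

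The choice of probe set hid some differences. Of 6504 genes with more than 1 tested probe set, 337 were not called by the brightest probe set but were called by another, 132 of them higher and 205 lower in B, and 23 were members of the lists. Besides Zap70, the adaptor Tespa1 was called lower in B by both of its dimmer probe sets (log2 differences -1.30 and -1.03), and Pik3cg (PI3 kinase gamma) higher by one, which read 145 and 146 in B and 46.9 to 81.1 in T. Pcgf5 was called lower by a probe set that read 25 and 25.3 in B and 139 to 181 in T. In 6 genes (Aopep, BC004004, Hivep3, Mgst1, Spata13 and Tsc22d1) probe sets of one gene were called in opposite directions. There were 2 such genes without B replicate 1 and 1 without B replicate 2. Hivep3, a zinc finger factor, had one at 990.0 and 1098 in B and 135 to 332 in T and one at 20.2 and 7.79 and 44.8 to 78.5. Which transcripts these probe sets read was not tested. Outside the named genes, 6065 tested probe sets had several gene symbols or none, and 298 of them were called higher and 326 lower in B.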
